A study of Mus musculus with 10 samples.

Results

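Transcript levels of 10 genes of the cullin ubiquitin ligase machinery were examined in hearts of mice that overexpress SPOP. The genes were Spop itself, its paralogue Spopl, the scaffolds Cul3 and Cul1, the RING subunit Rbx1, the modifier Nedd8 and its conjugating enzyme Ube2m, the exchange factors Cand1 and Cand2, and the deneddylase Cops5. They were taken by gene symbol from a table of 24888 genes. All 10 passed the filter on low values, which asks for 10 or more scaled reads in 5 or more libraries and which 14212 genes passed in all. Poly(A) RNA of whole heart tissue was sequenced from 10 mice, all labelled male and described as 8 to 10 weeks old and kept under sham conditions. In the SPOP_CKI group (5 libraries, genotype CKI), SPOP was overexpressed in the heart with the αMHC-Cre system. The Cre_control group (5 libraries, genotype Myh6Cre, titled WT) carried the Cre transgene without the SPOP construct. The Cre line was therefore common to both groups. The Myh6 promoter that drives it, also called αMHC, is active in cardiomyocytes, whereas the libraries average over every cell type of the tissue. The labels give neither the strain nor the structure or species of the SPOP construct.

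SPOP binds its substrates through a MATH domain and binds CUL3 through a BTB domain, so that substrates are brought to the RING subunit RBX1 at the far end of the scaffold, where a ubiquitin-loaded enzyme docks. A cullin ligase is switched on when UBE2M, with the help of RBX1 and DCN-like proteins, attaches NEDD8 to the cullin. It is switched off when COPS5, the catalytic subunit of the COP9 signalosome, cleaves NEDD8 off again. CAND1 holds cullins that carry no NEDD8 and exchanges their substrate receptors, a role best known for CUL1, which works with SKP1 and F-box proteins, and CAND2 is a paralogue known from striated muscle. These are background roles of the proteins. The values below are of RNA, and protein levels and neddylation are not analysed here.

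The 2 adaptors are related closely enough that their coding sequences are shown, because the separation of their read counts rests on the positions at which they differ. In the GENCODE mouse transcripts (build GRCm38), the coding sequences of Spop (chromosome 11, 1125 bases) and Spopl (chromosome 2, 1179 bases) were identical at 74.1% of aligned bases and their translations at 83.4% of aligned residues. The longest run of identical bases was 20. The stretch around it, bases 642 to 741 of each coding sequence counted from the first base of the start codon, is printed 5′ to 3′ with that run in capitals. Over these 100 bases the paralogues were identical at 75 positions.
Spop: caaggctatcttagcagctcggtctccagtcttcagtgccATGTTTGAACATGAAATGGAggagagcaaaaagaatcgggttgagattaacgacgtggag
Spopl: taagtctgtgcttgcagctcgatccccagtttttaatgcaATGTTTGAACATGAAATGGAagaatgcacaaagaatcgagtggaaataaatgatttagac
The other paralogous pairs were further apart. Cand1 and Cand2 were identical at 62.3% of aligned coding bases with a longest shared run of 17, and Cul1 and Cul3 at 54.0% with a longest run of 12. Of the 10 genes, Rbx1 alone had a near-identical copy in the annotation, the pseudogene Rbx1-ps, which matched its coding sequence at 99.1% of 327 bases. The copy averaged 3.31 scaled reads in SPOP_CKI and 2.40 in Cre_control, far under the level of Rbx1, though reads that fit both could have been placed on either.

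Depth was 15316293 to 17114869 reads per library. Library SPOP_CKI 3 stood apart, with 13167 genes above 0 against 18531 to 20806 in the other libraries, and a mean correlation with its own group of 0.81 against 0.89 to 0.91 for the other SPOP_CKI libraries and 0.96 to 0.97 for Cre_control libraries. Reads of Xist (4491 to 6578 scaled reads) together with none of Ddx3y, Uty, Eif2s3y or Kdm5d were found in SPOP_CKI 1, SPOP_CKI 3 and Cre_control 5, against the male label. Among markers of the tissue, cardiomyocyte transcripts were abundant in every library (summed level of 6 markers 273310 to 531220 scaled reads in SPOP_CKI and 453970 to 569100 in Cre_control), and of those 6 genes 1 rose (Actc1) and 2 fell (Myh6 and Tnni3). Of 4 endothelial markers 2 fell (Pecam1 and Cdh5; sums 12097 to 17931 in SPOP_CKI and 17931 to 20970 in Cre_control), and all 3 erythroid markers fell (4168 to 7772 in SPOP_CKI and 12559 to 25994 in Cre_control). Of 4 macrophage markers 1 rose (Adgre1; sums 1596 to 6977 in SPOP_CKI and 1778 to 3142 in Cre_control). The 4 fibroblast markers (20811 to 47839 in SPOP_CKI and 20873 to 24937 in Cre_control) and the 3 smooth muscle and pericyte markers (15572 to 24394 in SPOP_CKI and 19900 to 27361 in Cre_control) were not called by limma, with 1 and 0 of them at an unadjusted p under 0.05. Of the skeletal muscle markers, Myh1 and Myh4 were not listed and Actn3 lay below the filter (mean 2.77 scaled reads in Cre_control). Ckm fell, with means of 4890 in SPOP_CKI and 17172 in Cre_control. With the others near 0 or unlisted, its fall cannot be read as one of skeletal muscle. Also below the filter were the lymphocyte markers (sums up to 37.2 in SPOP_CKI and 55.2 in Cre_control) and the adipocyte markers (up to 48.8 in SPOP_CKI and 75.3 in Cre_control). Beside these marker counts, 10.0% of all genes tested were called higher and 12.3% lower. The part of these cell type differences in the results below was not tested.

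Of the 10 genes, 2 were higher in SPOP_CKI hearts at an adjusted p under 0.05 (limma on log2(value + 1), Benjamini-Hochberg over all genes tested, two-sided). These were Spop and Cand1, and they were also those whose groups did not overlap. None was lower, and none of the 8 others had an unadjusted p under 0.05; DESeq2 and edgeR on the reads recovered from the scaled values also called 2 higher and 0 lower. Over all genes tested, 22.3% were called, 10.0% higher and 12.3% lower, and the groups did not overlap for 21.3%. A count of 2 in 10 is close to that background, and it includes Spop, whose rise was set by the design. The median absolute log2 fold change of the 10 genes was 0.25, beside 0.53 for all genes tested. These medians were not matched for level. The filter admits genes at 10 scaled reads, while Spopl, the rarest of the 10 genes, averaged 285 in Cre_control.

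**Figure D1:**
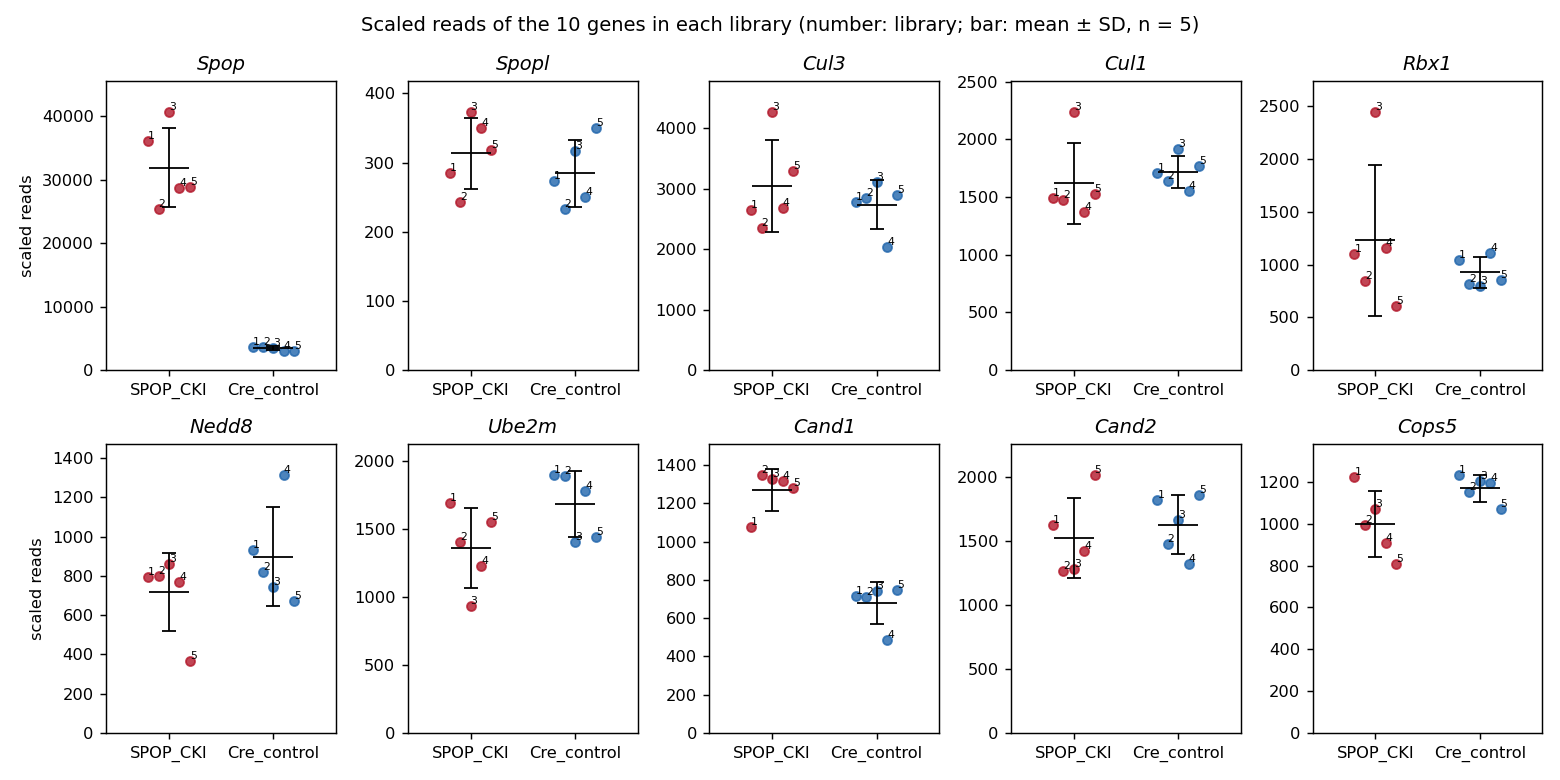
Scaled reads (linear axes that start at 0) of each of the 10 genes in every library, SPOP_CKI left of Cre_control; the number is the library and the bar is the mean ± SD of 5 libraries. Spop and Cand1 are the genes whose groups stand clear of each other, and SPOP_CKI 3 is the high point for Cul3, Cul1 and Rbx1.

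Spop (ENSMUSG00000057522, mm10 chromosome 11 from 95414080 to 95493406, plus strand), the overexpressed gene, checks the labels and was read first. It had 36028, 25308, 40631, 28690 and 28830 scaled reads in SPOP_CKI 1 to 5, against 3698, 3726, 3526, 3078 and 3098 in Cre_control 1 to 5. Every SPOP_CKI library was high, and the lowest of them lay 6.79-fold above the highest control. The log2 fold change was 3.20 (SE 0.17, 95% confidence interval 2.83 to 3.57, adjusted p = 6.15e-06), a 9.20-fold difference, and the call held under all alternatives of processing. Spop counts in SPOP_CKI hearts add the endogenous gene and whatever part of the construct carries its sequence, and gene counts do not separate them. In whole tissue, a difference in RNA per cell and a difference in the share of cells that express a gene cannot be told apart. Per kilobase of gene length, Spop ranked 48 among the tested genes in SPOP_CKI hearts and 618 in Cre_control hearts.

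Spopl (ENSMUSG00000026771, chromosome 2 from 23506220 to 23572106, minus strand) encodes the paralogous adaptor, which also binds CUL3. Its values were 285, 244, 373, 349 and 318 scaled reads in SPOP_CKI 1 to 5, against 274, 233, 317, 249.9 and 349 in Cre_control 1 to 5. The groups overlapped over nearly their whole range. With a log2 fold change of 0.14, it did not pass the test (SE 0.18, adjusted p = 0.591), and its 95% confidence interval of -0.25 to 0.53 covers folds of 0.84 to 1.44. Leaving out 1 library in turn gave 0.07 (without Cre_control 2) to 0.23 (without SPOP_CKI 2), and centring each library on genes of like transcript GC content turned the sign (-0.28). The ratio of Spop to Spopl within a library, which does not depend on scaling, was 126, 103, 109, 81.9 and 90.5 in SPOP_CKI 1 to 5, against 13.5, 15.9, 11.1, 12.3 and 8.85 in Cre_control 1 to 5. All 5 SPOP_CKI ratios exceeded all control ratios, by 8.35-fold in the geometric mean. An exact permutation test of the library labels gave a two-sided p of 0.0079, the smallest this design can give. Adjusted over the 3 ratios, the permutation p was 0.0119. Because the rise of Spop was set by the design, the outcome of this test was fixed in advance and adds no support.

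Cul3 (ENSMUSG00000004364, chromosome 1 from 80264923 to 80340480, minus strand) encodes the scaffold that SPOP docks on. It had 2639.9, 2351, 4267, 2677 and 3296 scaled reads in SPOP_CKI 1 to 5, against 2782, 2844, 3118, 2037 and 2902 in Cre_control 1 to 5. SPOP_CKI 3 was the highest of the 10 libraries and Cre_control 4 the lowest. SPOP_CKI 5 also lay above every control, while SPOP_CKI 1, 2 and 4 lay below every control other than Cre_control 4. Its log2 fold change was 0.14 (SE 0.19, 95% confidence interval -0.28 to 0.55, adjusted p = 0.627). It was 0.01 without SPOP_CKI 3, 0.03 without Cre_control 4 and up to 0.22 without SPOP_CKI 2. GC centring turned the sign (-0.31, not called, adjusted p = 0.0899 in a range of 0.0899 to 0.982 over the alternatives), as did array weights (-0.049). Set against its scaffold per kilobase of gene length, the level of Spop was 16.5 ± 2.87 times that of Cul3 in SPOP_CKI hearts and 1.96 ± 0.27 times in Cre_control hearts (SD, n = 5 each). Single libraries ranged over 13.5 to 21.1 in SPOP_CKI and 1.65 to 2.33 in Cre_control.

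Cul1 (ENSMUSG00000029686, chromosome 6 from 47453398 to 47526139, plus strand) encodes the scaffold of the SKP1 and F-box ligases. Its values were 1487, 1474, 2236, 1366 and 1527 scaled reads in SPOP_CKI 1 to 5, against 1710.5, 1639, 1919, 1551 and 1769.5 in Cre_control 1 to 5. In 4 of the 5 SPOP_CKI libraries the level lay under every control, and in SPOP_CKI 3 it lay above all of them. The log2 fold change was -0.11 (SE 0.16, 95% confidence interval -0.45 to 0.24, adjusted p = 0.645), with -0.05 without SPOP_CKI 4, -0.23 without SPOP_CKI 3 and -0.34 under GC centring, none of them called. The ratio of Cul1 to Cul3 was 0.563, 0.627, 0.524, 0.510 and 0.463 in SPOP_CKI 1 to 5, against 0.615, 0.577, 0.616, 0.762 and 0.610 in Cre_control 1 to 5. SPOP_CKI 2 lay within the range of the controls, so the groups overlapped. The difference of -0.24 in log2 ratio had an exact two-sided permutation p of 0.0476 (adjusted p = 0.0476 over 3 ratios) and kept the call when SPOP_CKI 2 was left out. It lost the call when any other single library was left out, with differences between -0.28 and -0.18.

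Rbx1 (ENSMUSG00000022400, chromosome 15 from 81466296 to 81476369, plus strand) encodes the RING subunit shared by most cullin ligases. It was read at 1097, 848, 2446, 1155 and 606 in SPOP_CKI 1 to 5, against 1048, 819.65, 794, 1113 and 855 in Cre_control 1 to 5. Both extremes were SPOP_CKI libraries, SPOP_CKI 3 at the top and SPOP_CKI 5 at the bottom, with all controls between them. The coefficient of variation was 58.0% in SPOP_CKI and 15.6% in Cre_control. A log2 fold change of 0.26 did not pass the test (SE 0.31, 95% confidence interval -0.41 to 0.93, adjusted p = 0.562) and turned to -0.03 without SPOP_CKI 3, to -0.15 without the 3 libraries that hold Xist reads and to -0.012 under GC centring. Without SPOP_CKI 5 it was 0.47, also not called.

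Nedd8 (ENSMUSG00000010376, chromosome 14 from 55662263 to 55672124, minus strand), the modifier itself, had 793, 797, 858, 768 and 365 scaled reads in SPOP_CKI 1 to 5, against 932, 821, 741, 1315 and 674 in Cre_control 1 to 5. The low end was held by SPOP_CKI 5 and the high end by Cre_control 4, and the other libraries overlapped. Its log2 fold change was -0.34 (SE 0.26, 95% confidence interval -0.91 to 0.22, adjusted p = 0.351), with -0.12 without SPOP_CKI 5, -0.20 without Cre_control 4 and -0.61 without the 3 libraries that hold Xist reads, none of them called. Ube2m (ENSMUSG00000005575, chromosome 7 from 13035120 to 13038275, minus strand), which transfers NEDD8 onto the cullins that pair with RBX1, had 1692, 1405, 934, 1226 and 1551 scaled reads in SPOP_CKI 1 to 5, against 1899, 1890.3, 1405, 1783 and 1445 in Cre_control 1 to 5. All 5 SPOP_CKI values lay below the control median, yet the ranges overlapped. At a log2 fold change of -0.32, Ube2m did not pass the test (SE 0.18, 95% confidence interval -0.72 to 0.08, adjusted p = 0.217). It was -0.20 without SPOP_CKI 3. GC centring turned the sign of both, to 0.16 for Nedd8 and 0.82 for Ube2m, and neither was called.

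Cand1 (ENSMUSG00000020114, chromosome 10 from 119199255 to 119240055, minus strand), the general exchange factor, rose in SPOP_CKI hearts. It had 1076, 1349, 1325, 1314 and 1278 scaled reads in SPOP_CKI 1 to 5, against 713, 708, 744, 485 and 747 in Cre_control 1 to 5. The groups were apart, with the lowest SPOP_CKI library 1.44-fold above the highest control. The log2 fold change was 0.91 (SE 0.15, 95% confidence interval 0.58 to 1.25, adjusted p = 0.00268), which is 1.88-fold. Its log2 SD was 0.13 in SPOP_CKI and 0.26 in Cre_control, while the SD of its scaled reads was about equal, at 111 in SPOP_CKI and 109.9 in Cre_control. The call held under all alternatives tried, with log2 fold changes of 0.73 to 1.01 and adjusted p-values up to 0.011. In the table deposited by the authors, the log2 fold change of Cand1 is 0.90 with an adjusted p-value of 2.76e-05.

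Cand2 (ENSMUSG00000030319, chromosome 6 from 115774538 to 115805557, plus strand), the paralogue known from muscle, was not called. Its values were 1625, 1265, 1284, 1419 and 2017 scaled reads in SPOP_CKI 1 to 5, against 1821, 1473, 1662, 1322 and 1857 in Cre_control 1 to 5. The groups overlapped, with SPOP_CKI 5 the highest of all libraries and SPOP_CKI 2 the lowest. The log2 fold change was -0.11 (SE 0.17, 95% confidence interval -0.48 to 0.26, adjusted p = 0.669), with -0.05 without SPOP_CKI 2 or SPOP_CKI 3 and -0.21 without SPOP_CKI 5. GC centring turned the sign (0.43), and none of these was called. The difference between the paralogues was tested as the ratio of Cand2 to Cand1, which was 1.51, 0.938, 0.969, 1.08 and 1.58 in SPOP_CKI 1 to 5, against 2.55, 2.08, 2.23, 2.72 and 2.48 in Cre_control 1 to 5. All SPOP_CKI ratios were below all control ratios, 2.03-fold lower in the geometric mean (exact permutation test, two-sided p = 0.0079, adjusted p = 0.0119 over 3 ratios). Several of the 10 genes share genomic bases with others. Cul3 overlaps Gm37262 by 1818 bases and Gm37902 by 1683 on its own strand, and Cand2 overlaps Mir7660 by 63, all of them genes with under 4 scaled reads on average in either group. On the other strand, Cul1 overlaps the pseudogene A930035D04Rik by 545 bases, Nedd8 overlaps Gmpr2 by 184, Cops5 overlaps Cspp1 by 182 and Cand2 overlaps the ribosomal protein gene Rpl32 by 53. The sources used here give no strand setting, so reads in those stretches cannot be assigned with certainty.

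**Figure D2:**
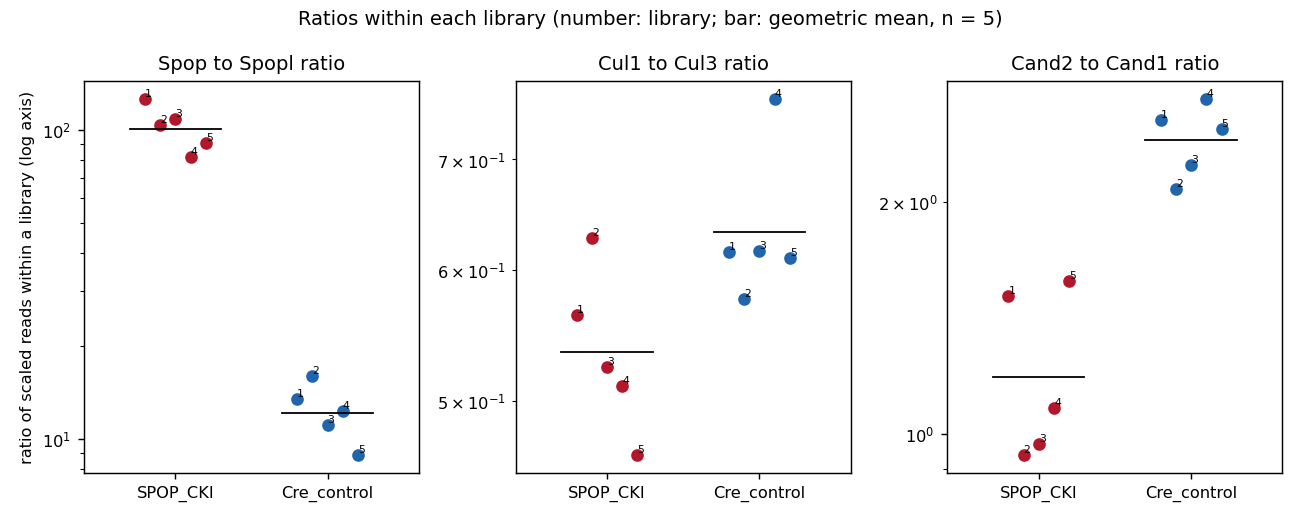
Ratios of scaled reads within each library (log axes) for Spop to Spopl, Cul1 to Cul3 and Cand2 to Cand1, SPOP_CKI left of Cre_control; the number is the library and the bar is the geometric mean of 5. The groups are apart for the first and the last ratio, 8.35-fold higher and 2.03-fold lower in SPOP_CKI, and overlap for Cul1 to Cul3.

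Cops5 (ENSMUSG00000025917, chromosome 1 from 10024601 to 10038168, minus strand) encodes the metalloprotease subunit that removes NEDD8. It had 1222, 993, 1073, 909 and 808 scaled reads in SPOP_CKI 1 to 5, against 1235, 1150.1, 1206, 1196 and 1069.6 in Cre_control 1 to 5. SPOP_CKI 1 and 3 lay inside the control range and the other SPOP_CKI libraries below it. Cops5, at a log2 fold change of -0.24, did not pass the test (SE 0.14, 95% confidence interval -0.55 to 0.07, adjusted p = 0.233). Of the alternatives, centring by GC content came nearest to a call for Cops5, at -0.42 with an adjusted p of 0.0531 in a range of 0.0531 to 0.426, and leaving out 1 library in turn gave -0.31 (without SPOP_CKI 1) to -0.17 (without SPOP_CKI 5).

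Levels were compared between genes as scaled reads per kilobase of the deposited gene length. In SPOP_CKI hearts the order was led by Spop at 10097 ± 1980 per kilobase, followed by Cul3 at 625 ± 157, Ube2m at 578 ± 125, Nedd8 at 568 ± 158, Cul1 at 401 ± 86.7, Cand2 at 278 ± 57.0, Rbx1 at 270.3 ± 157, Cops5 at 266 ± 42.0, Cand1 at 152 ± 13.2 and Spopl at 30.5 ± 5.00 (SD, n = 5). From Cul3 down to Cops5, each gene overlapped the next in its range over libraries, and the steps below Spop, above Cand1 and above Spopl were clear of overlap. In Cre_control hearts Spop also led, at 1084 ± 100.4 per kilobase, with Ube2m at 715 ± 103, Nedd8 at 711 ± 200.4, Cul3 at 562 ± 84.4, Cul1 at 425 ± 34.4, Cops5 at 311 ± 17.1, Cand2 at 297 ± 41.7, Rbx1 at 203 ± 31.8, Cand1 at 81.3 ± 13.1 and Spopl at 27.7 ± 4.69. There the steps below Spop, below Cul1, below Rbx1 and below Cand1 were clear of overlap. By this length Spop led the 10 transcripts in both groups and Spopl came last. With the length of the GENCODE coding transcript instead, a choice made after the data were seen, Spop led in SPOP_CKI (10414 ± 2042 per kilobase) but not in Cre_control, where Ube2m stood at 1144 ± 164, Spop at 1118 ± 104 and Nedd8 at 1088 ± 307 (SD, n = 5). The middle of the order also changed with that length. Cul3 took position 5 in both groups, and Rbx1 moved from position 7 to 4 in SPOP_CKI and from 8 to 6 in Cre_control. Spopl was last in both groups by either length.

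**Figure D3:**
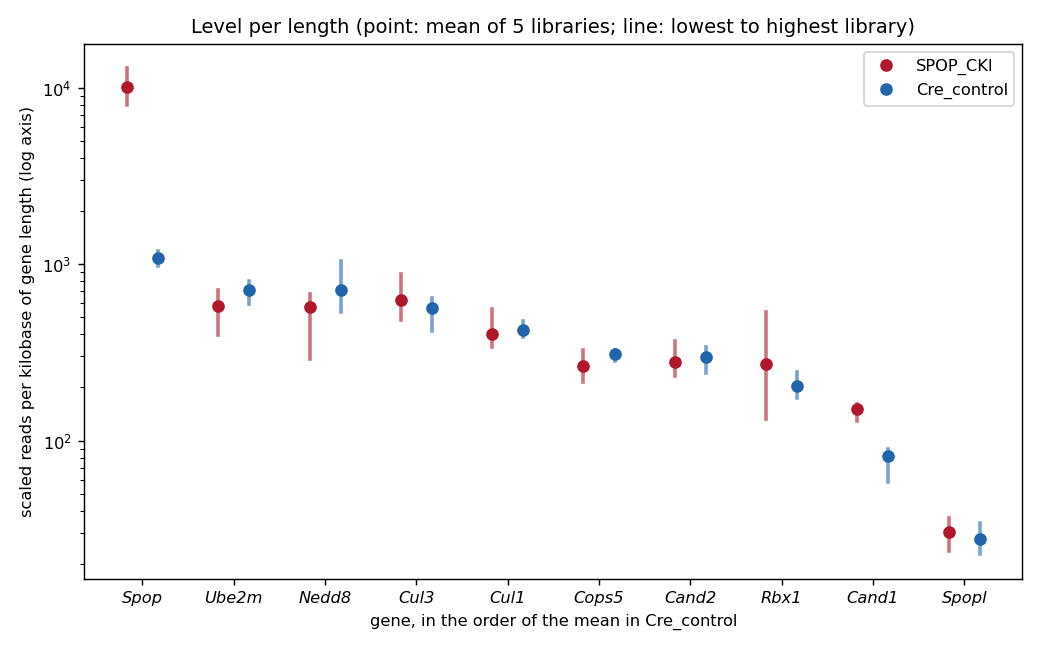
Level of each gene in scaled reads per kilobase of gene length (log axis), SPOP_CKI left of Cre_control for each gene, in the order of the mean in Cre_control; points are means of 5 libraries and lines run from the lowest to the highest library. Spop at 10097 in SPOP_CKI stands above every other level, and Cand1 is the other gene whose lines do not overlap between groups.

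Across libraries the 10 genes did not move as a block. The SD of log2 values was larger in SPOP_CKI than in Cre_control for 9 of the 10, as it was for 86.7% of all genes tested. As a description over 10 libraries, deviations from the group means correlated between Cul3 and Cul1 at r = 0.85, between Cul3 and Spop at 0.66, between Cul3 and Spopl at 0.66, and between Cul3 and Ube2m at -0.60. Deviations of Spop correlated with those of Cul1 at 0.66, of Rbx1 at 0.63 and of Cand1 at 0.04. Outside the 10 genes, the deviations most like those of Spop were of Vdac2 (r = 0.97), 4921524J17Rik (0.96), Aif1l (0.95), Dtwd2 (0.95) and Gm38910 (0.95). Those most like Cul3 were of Wwp1, Alg10b, Rdx and Tm9sf2 (0.98 each) and Zfp975 (0.97). None of these was called between the groups. The points share the 10 libraries, and SPOP_CKI 3 is the extreme one for several of the genes.

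**Figure D4:**
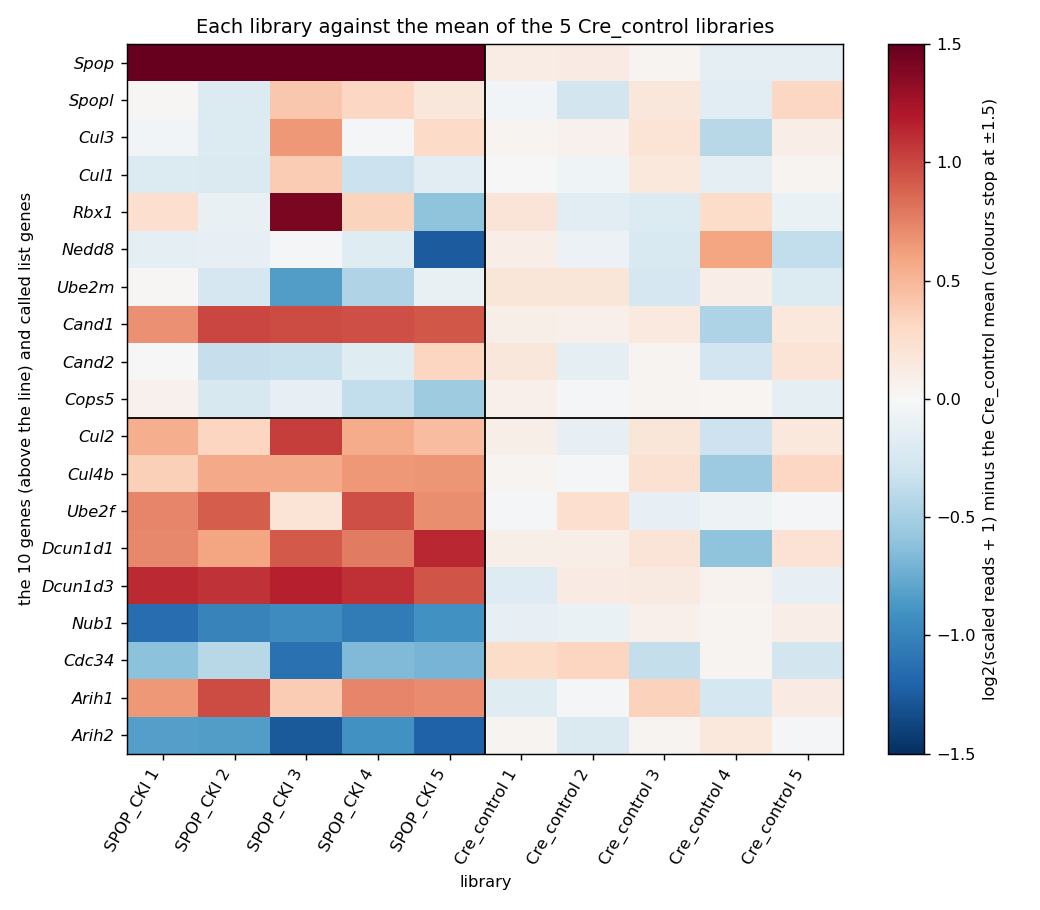
Log2(scaled reads + 1) of each library minus the Cre_control mean, for the 10 genes (above the line) and the called genes of the wider list (below it), SPOP_CKI 1 to 5 left of Cre_control 1 to 5; colours stop at ±1.5, which all SPOP_CKI values of Spop exceed. Cand1 and the rising list genes are red across SPOP_CKI, Nub1, Cdc34 and Arih2 are blue, and Rbx1 is red in SPOP_CKI 3 and blue in SPOP_CKI 5.

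The other genes of the pathway were taken as a list of 43 genes, all tested. Of these 6 rose in SPOP_CKI (14.0%), 3 fell (6.98%) and 34 did not pass the test, beside 10.0% higher and 12.3% lower among all genes tested. The median log2 fold change of the list was 0.06 and that of all genes was -0.11. The groups did not overlap for 12 of the 43, beside 21.3% of all genes tested. Without SPOP_CKI 3, 7 rose and 4 fell, beside 13.7% higher and 17.3% lower among all genes in that fit.

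Of the 8 enzymes and helpers that activate and attach NEDD8, 3 rose and none fell, beside 10.0% higher and 12.3% lower among all genes tested. Neither this subgroup nor the others were tested as sets. Dcun1d3, a membrane-associated DCN-like protein, averaged 369 ± 20.3 scaled reads in SPOP_CKI and 174 ± 17.6 in Cre_control (log2 fold change 1.08, SE 0.14, adjusted p = 0.000898). Dcun1d1, the best studied DCN-like protein, averaged 1034 ± 153 in SPOP_CKI and 588 ± 119.9 in Cre_control (0.83, SE 0.18, adjusted p = 0.00967), a call that GC centring ended (0.39). Neither gene overlapped between the groups. Ube2f, the NEDD8 conjugating enzyme that works with RNF7 on CUL5, averaged 755 ± 144 in SPOP_CKI and 458 ± 50.5 in Cre_control (0.70, SE 0.17, adjusted p = 0.0134), and its groups overlapped at SPOP_CKI 3. Uba3, the catalytic subunit of the NEDD8 activating enzyme, was not called (0.51, adjusted p = 0.0615), although its groups were apart, and it was called higher without SPOP_CKI 5 (0.58) and by DESeq2 (0.53), edgeR (0.54) and with array weights (0.37). It was 0.34 without the libraries that hold Xist reads and 0.10 under GC centring, neither called. Of the others not called, Dcun1d5 (-0.22) was lower only under GC centring (-0.64, adjusted p = 0.0422). Dcun1d2 (0.42) was higher only without SPOP_CKI 2 (0.56, adjusted p = 0.0259).

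Among the cullins and RING partners, 2 of 7 rose and none fell, beside 10.0% higher and 12.3% lower among all genes tested. Cul2, the scaffold of the VHL ligase, averaged 1075 ± 215 scaled reads in SPOP_CKI and 711 ± 99.6 in Cre_control (log2 fold change 0.59, SE 0.17, adjusted p = 0.0272). Cul4b, an X-linked scaffold of the DDB1 ligases, averaged 627 ± 51.4 in SPOP_CKI and 432 ± 91.5 in Cre_control (0.56, SE 0.17, adjusted p = 0.0396). Of 21 alternatives, 14 kept the call of Cul2 and 12 that of Cul4b. The call of Cul2 was lost without SPOP_CKI 4 (0.59), Cre_control 1 (0.61), Cre_control 2 (0.56) or Cre_control 4 (0.51), without the libraries that hold Xist reads (0.49), with no filter (0.59) and under GC centring (0.18). That of Cul4b was lost without SPOP_CKI 2 (0.56), SPOP_CKI 4 (0.54), SPOP_CKI 5 (0.53), Cre_control 1 (0.57), Cre_control 2 (0.55) or Cre_control 4 (0.42), with no filter or a replicate block (0.56 each) and under GC centring (0.15). Cul9, a parkin-like cullin, averaged 301 ± 124 in SPOP_CKI and 538 ± 68.7 in Cre_control with no overlap and was not called (-0.98, adjusted p = 0.0585). It was called lower under 7 of 21 alternatives, among them without SPOP_CKI 3 (-0.62), without SPOP_CKI 5 (-1.16), without the libraries that hold Xist reads (-0.60) and with DESeq2 (-0.84), and it was -0.24 under GC centring. Rnf7, the RING partner of CUL5, had 682 ± 234 scaled reads per kilobase in SPOP_CKI and 672 ± 67.2 in Cre_control and was not called (log2 fold change -0.04). Cul7 was listed at 0 in SPOP_CKI 3 and at 294 to 618 scaled reads in the other SPOP_CKI libraries, against 472 to 639.84 in Cre_control. Its fitted log2 fold change of -2.10 was not called, and it was -0.34 without SPOP_CKI 3.

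Of the 3 genes for processing, removal and turnover of NEDD8, 1 fell, beside 12.3% of all genes tested. Nub1, whose product sends NEDD8 and its conjugates to the proteasome, averaged 499.98 ± 31.1 scaled reads in SPOP_CKI and 1008 ± 72.8 in Cre_control, a log2 fold change of -1.01 (SE 0.12, adjusted p = 0.000541). Its groups did not overlap, and the call held under all 21 alternatives. Senp8 was not called (0.90, adjusted p = 0.0637) but was higher with DESeq2 (0.91) and without SPOP_CKI 2 (1.08). It was 0.46 under GC centring, not called. Uchl3 was called higher only without SPOP_CKI 2 (0.45). None of the 9 other COP9 signalosome subunits was called by limma, with 1 at an unadjusted p under 0.05, and DESeq2 called 1 and edgeR 0. Without SPOP_CKI 3, in which it was nearly absent, Cops7b was higher (0.61, adjusted p = 0.0227 in a fit on 9 libraries). None of the 3 cullin inhibitors and regulators was called by the main limma fit, DESeq2 or edgeR, or had an unadjusted p under 0.05 in that main fit. Under GC centring alone of the alternatives, Ubxn7 was called lower (-0.64, adjusted p = 0.0194).

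Of the 9 ubiquitin-transferring partners, 1 rose and 2 fell, beside 10.0% higher and 12.3% lower among all genes tested. The groups did not overlap for 5 of them, beside 21.3% of all genes tested. Ube2d3 (0.44, adjusted p = 0.0544) and Ube2d2a (0.47, adjusted p = 0.0809) were apart and not called. DESeq2 and array weights called both higher. Quantile normalization also called Ube2d3, and leaving out SPOP_CKI 2 also called Ube2d2a. Under GC centring they were 0.03 and 0.02, neither called. Arih1, a ring-between-ring ligase that works with neddylated cullins that pair with RBX1, averaged 2673 ± 391 scaled reads in SPOP_CKI and 1659 ± 287 in Cre_control (log2 fold change 0.69, SE 0.16, adjusted p = 0.0127). Arih2, its relative that works with CUL5, averaged 605 ± 85.6 in SPOP_CKI and 1213 ± 111 in Cre_control (-1.01, SE 0.14, adjusted p = 0.00122). The groups were apart for both, in opposite directions. Cdc34, the ubiquitin conjugating enzyme of the CUL1 ligases, averaged 928 ± 155 in SPOP_CKI and 1520.4 ± 321 in Cre_control (-0.70, SE 0.18, adjusted p = 0.0199). The call of Cdc34 was lost without Cre_control 1 (-0.63) or Cre_control 2 (-0.62). Centring by GC content ended the call of Arih1 (0.42) and turned the sign of Cdc34 (0.44), whereas Ube2f, Dcun1d3, Nub1 and Arih2 kept theirs under all 21 alternatives.

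The 4 linkers of other cullins were not called by limma, with 1 at an unadjusted p under 0.05, and DESeq2 called 1 and edgeR 0. Skp1a, the linker of F-box proteins to CUL1, had 1582 ± 239.5 scaled reads per kilobase in SPOP_CKI and 1427 ± 222 in Cre_control (log2 fold change 0.15, 95% confidence interval -0.22 to 0.52). Elob, the elongin B linker of the CUL2 and CUL5 ligases, had 907 ± 202 per kilobase in SPOP_CKI and 1301 ± 220.1 in Cre_control (-0.53, adjusted p = 0.0603), and without SPOP_CKI 1 it was called lower (-0.63), as with DESeq2 (-0.52), array weights (-0.42), a replicate block (-0.53) and without the libraries that hold Xist reads (-0.58). GC centring turned its sign (0.34, not called). Ddb1, the linker of the CUL4 ligases, had 939.88 ± 236 per kilobase in SPOP_CKI and 1084 ± 28.9 in Cre_control (-0.25, 95% confidence interval -0.67 to 0.17).

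**Figure D5:**
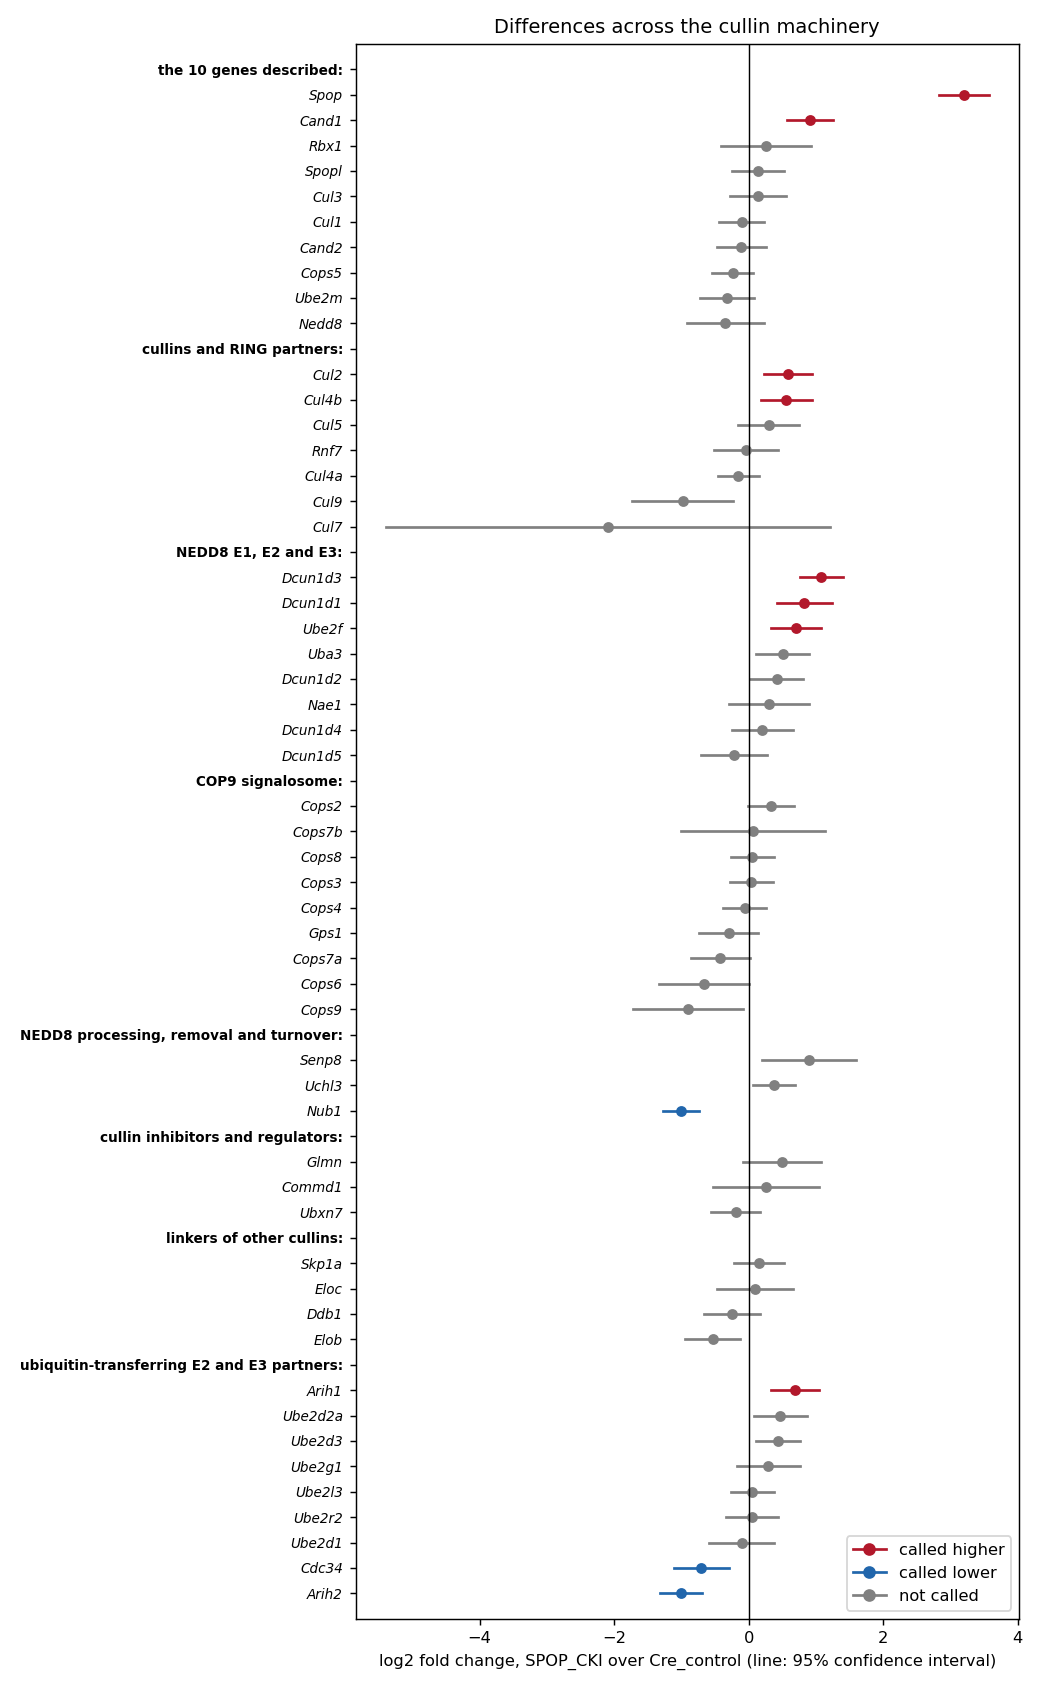
Log2 fold change of SPOP_CKI over Cre_control with its 95% confidence interval for the 10 genes and for the 43 other genes of the cullin machinery by role; red marks genes called higher, blue genes called lower and grey genes not called. Spop at 3.20 lies far right of every other gene, and Cul7, listed at 0 in SPOP_CKI 3, has the widest interval.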

How the data were processed

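Heart poly(A) RNA was measured in 5 SPOP_CKI and 5 Cre_control mice, with groups taken from the labelled genotypes and titles. The submitters' processing notes name featureCounts 1.5.0-p3 for counting and DESeq2 1.20.0, on mm10. The sources used here do not give the aligner, annotation release or strand setting. The columns deposited by the authors for single libraries are a scaled read signal. Each value is a whole read number over a library factor, since dividing by the smallest value above 0 gave whole numbers for 100% of values (tolerance 0.001). The authors' table also gives group means, a log2 fold change, a p-value, an adjusted p-value and a gene length.

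For the comparison, log2(value + 1) was fitted by genotype alone with limma 3.58.1 (trend, robust; R 4.3.3) over 14212 genes, those with at least 10 in 5 or more libraries. P-values are two-sided, Benjamini-Hochberg adjusted, with a threshold of 0.05, and a fold change refers to that log2 scale. Ratios within libraries were compared by exact permutation. DESeq2 1.42.0 and edgeR 4.0.16 ran on the recovered reads as alternatives, beside the others named in the closing section. The limma step was tested on simulated data, in which both groups were given the spread of Cre_control. In the data the median log2 SD was 0.55 in SPOP_CKI and 0.26 in Cre_control. That test therefore does not cover the unequal spread of the groups. Coding sequences and transcript GC content (99.9% of tested genes) came from GENCODE transcripts, build GRCm38.

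Libraries of a group always differed by more than sampling noise (chi-square over degrees of freedom 13.8 or more). Litters and batches are not labelled, so p-values reflect only how far these libraries scatter. The members and lists were chosen with earlier results of these data known. Named genes are the 10 members, the called genes of the pathway list, the 4 uncalled list genes with the largest level per length, the 3 nearest tested protein-coding genes on either side of Spop, and the 5 genes most like Spop and Cul3 over libraries. Cul7, Cul9, Cops7b, Uba3, Dcun1d2, Dcun1d5, Senp8, Uchl3, Ubxn7, Ube2d2a and Ube2d3 were singled out after their values were seen.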

Additional observations from a re-analysis of the deposited data

Results flagged for a closer look

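In groups of 5 libraries, a value was singled out where the gap between the highest or lowest library and its nearest neighbour, over the range of the group, exceeded Dixon's critical value. Of 106 such groups (53 genes in both genotypes), 18 had such a value, and 7 of the 18 were in SPOP_CKI 3 and 7 in Cre_control 4. Chance gives about 1 in 20 for independent groups, but these groups share the same 10 libraries. The share over all genes tested was not computed, so the count cannot be read as a trait of these genes.

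Among the 10 genes, Cul1 was high in SPOP_CKI 3 at 2236 scaled reads (the other SPOP_CKI libraries 1366 to 1527), and Nedd8 was low in SPOP_CKI 5 at 365 (others 768 to 858). Cand1 was low in SPOP_CKI 1 at 1076 (others 1278 to 1349) and low in Cre_control 4 at 485 (others 708 to 747). Without Cre_control 4 the log2 fold change of Cand1 was 0.80 and remained called.

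In the wider list, SPOP_CKI 3 was high for Cul2 (1443), Dcun1d5 (1291), Cops3 (1110.5), Commd1 (680.48) and Ube2g1 (2799), and low for Cops7b (28.0). Cre_control 4 was low for Uba3 (631), Dcun1d1 (379), Skp1a (2277) and Ube2l3 (1069.8), and high for Gps1 (835) and Cops9 (1034). Ube2f was high in Cre_control 2 (545) and Uchl3 low in Cre_control 3 (261). Values are scaled reads, and what set these libraries apart was not tested.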

How the results depend on the processing

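Over 18 results, 354 alternatives were computed, of which 324 kept direction and call (for counts, stayed within 1.5 times). Spop and Cand1 were called, and the other 8 genes were not, under all of them. Centring by GC content reversed the sign of 6 uncalled genes, to -0.28 for Spopl, -0.31 for Cul3, -0.012 for Rbx1, 0.16 for Nedd8, 0.82 for Ube2m and 0.43 for Cand2. Array weights gave -0.049 for Cul3, and omitting the 3 libraries with Xist reads gave -0.15 for Rbx1; the cause was not tested. Leaving out single libraries gave -0.030 (without SPOP_CKI 3) to 0.47 for Rbx1, 1963 to 4400 genes called in all (1963 without Cre_control 1, 1967 without Cre_control 4, against 3168), 4 to 9 list genes higher and 2 to 4 lower. Among all genes, 6.26% to 13.7% were higher and 7.48% to 17.3% lower in those fits. The list counts of 6 higher and 3 lower became 10 and 6 with DESeq2, beside 14.9% higher and 14.3% lower among all genes. With GC centring 2 were higher, beside 9.13% of all genes. The count lower was 6 with array weights and 5 without the Xist libraries, beside 20.3% and 16.96% of all genes. Array weights called 5320 genes. Quantile normalization moved the median of all genes to 0.03, against -0.11. The replicate numbers of the titles did not clearly pair the libraries. Same-numbered deviations correlated at 0.03 to 0.16, and 2 of 5 SPOP_CKI libraries matched best with their own number. These values cannot exclude a weak pairing. With a replicate block, 6 list genes were lower, beside 11.5% of all genes. The log2 ratios then had adjusted p-values of 0.0938 (3.06, Spop to Spopl), 0.125 (-0.24, Cul1 to Cul3) and 0.0938 (-1.02, Cand2 to Cand1), where 5 pairs cannot give p under 0.0625. Leaving out single libraries gave -0.30 to -0.18 for Cul1 to Cul3. At these depths rare transcripts such as Rbx1-ps and Nxph3 rest on few reads.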

Other observations

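The genes next to Spop on chromosome 11 were read as the 3 nearest tested protein-coding genes on either side. Nxph3, a neurexophilin, and Ngfr, the p75 neurotrophin receptor, both on the far side of the 3′ end of Spop, were higher in SPOP_CKI hearts. Among all genes tested, 10.0% were called higher. The groups of Nxph3 and Ngfr did not overlap, as for 21.3% of all genes tested. The calls of these neighbours under the alternatives are not given here. Nxph3 averaged 22.2 ± 14.0 scaled reads in SPOP_CKI and 4.58 ± 2.60 in Cre_control (log2 fold change 2.02, SE 0.64, adjusted p = 0.0429). Nxph3 passed the filter on low values through its SPOP_CKI libraries alone (11.7 to 42.0 scaled reads). Every control lay below the least value of that filter (1.07 to 7.69). Its call and its lack of overlap are therefore not independent of how it came to be tested. Ngfr averaged 63.3 ± 52.9 in SPOP_CKI and 16.1 ± 5.55 in Cre_control (1.67, SE 0.51, adjusted p = 0.0378), with 155 in SPOP_CKI 3 and 29.6 to 62.8 in the other SPOP_CKI libraries. Both are rare transcripts in these hearts. Kat7 (0.29), Slc35b1 (0.37), Fam117a (-2.05, listed at 0 in SPOP_CKI 3) and Phb (-0.52) were not called. The groups of Kat7 also did not overlap.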
